A study of Mus musculus with 12 samples.

Results

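The ethanol response of control mice is the difference between 3 arrays of ethanol-treated and 3 arrays of saline-treated animals, 6 of the 12 arrays of the series. The arrays were chosen by their labels alone, and all probe sets other than the control probe sets of the array maker were taken, 45037 in number. Tissue was medial prefrontal cortex (PFC) of adult male mice aged 12 weeks, and the series also holds 6 arrays of Fyn-null mice treated in the same way. Fyn is a tyrosine kinase of neurons and oligodendrocytes, and the study asked how its loss alters the acute response to ethanol.

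Control mice were of the B6129SF2/J stock, a hybrid stock whose animals differ genetically from one another, and Fyn-null mice were of the separate stock B6;129S7-Fyntm1Sor/J. All mice had saline injections on 3 days, and on day 4 they received ethanol at 3.0 g/kg (20% v/v, intraperitoneal) or saline again. Tissue was taken 4 hours later. Each array held RNA pooled from 3 mice, so that the spread between arrays is a spread between pools. Control ethanol pools carry the replicate numbers 1, 2 and 4 (experimental groups 1, 2 and 4), and control saline pools the numbers 1, 2 and 3 (experimental groups 5, 6 and 7). Both groups were injected and handled alike, so handling is shared and no group without injection was used here. The labels and the study's methods differ in the number of mice they give per group.

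Ethanol acts in brain on GABA-A and NMDA receptors, among other targets, and a sedating dose lowers the activity of cortical neurons. It also drives the release of glucocorticoids from the adrenal gland, and it lowers body temperature. Glucocorticoids enter cells and bind the glucocorticoid receptor, which moves to the nucleus and switches on genes that carry glucocorticoid response elements. Immediate early genes such as Fos and Npas4 are instead switched on by synaptic activity and rest low in quiet neurons.

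Values are log2 signals made by the authors with RMA, 1 per probe set (a set of short probes to one transcript), so that a difference of 1 is a change of 2-fold. The array medians lay between 5.40 and 5.48, and correlations between arrays between 0.982 and 0.997. Pan-neuronal markers summed to 37085 to 38186 on the linear scale over the 6 arrays and cortical excitatory neuron markers to 9420 to 11910. Markers of striatal neurons, the neighbouring tissue, summed to 1994 to 2062 in ethanol pools and 2102 to 2255 in saline pools, without overlap (exact permutation p = 0.1). A sign of RNA quality moved with the treatment. The difference between 3' and 5' control probe sets of Gapdh and Actb, which grows as RNA is broken or labelled less far, was 0.40, 0.45 and 0.48 (log2) in control ethanol replicates 1, 2 and 4, and 0.54, 0.65 and 0.99 in control saline replicates 1, 2 and 3. The groups did not overlap (exact permutation test, two-sided, p = 0.1, the smallest that 3 against 3 allows), and saline replicate 3 stood highest. The pool labelled control saline replicate 2 is in doubt as to genotype. Its Fyn signal was 8.74, whereas the other control pools lay between 9.31 and 9.70 and the Fyn-null pools between 8.64 and 9.01, apart from the pool labelled Fyn-null saline replicate 4 at 9.45. Labels were kept as given.

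Of 24770 probe sets tested, limma called 355 (1.43%), where called means a p under 0.05 after Benjamini-Hochberg adjustment. Of these 126 (0.509%) were higher after ethanol and 229 (0.925%) lower. With the probe set of highest mean standing for its gene, 179 of 12323 genes (1.45%) were called, 56 of them higher (0.454%) and 123 lower (0.998%). The called higher genes had a median log2 difference of 0.67 (1.59-fold) and reached 2.02, with 10 genes beyond 1. The called lower genes had a median of -0.54 (1.45-fold) and reached -1.57, with 6 genes beyond -1. Over all genes the median was -0.060 and the median standard error 0.10. The 3 ethanol pools lay wholly above or below the 3 saline pools in every called gene, as they did in 3040 of all genes (24.7%). When known shifts were added to simulated arrays, 96 of 100 shifts of 1 and 44 of 100 shifts of 0.5 were called. In that setting 3 pools per group missed most shifts of 0.5. The simulated noise was independent between probe sets and arrays and held no 3' to 5' shift, so rates in the real arrays may differ.

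**Figure D1:**
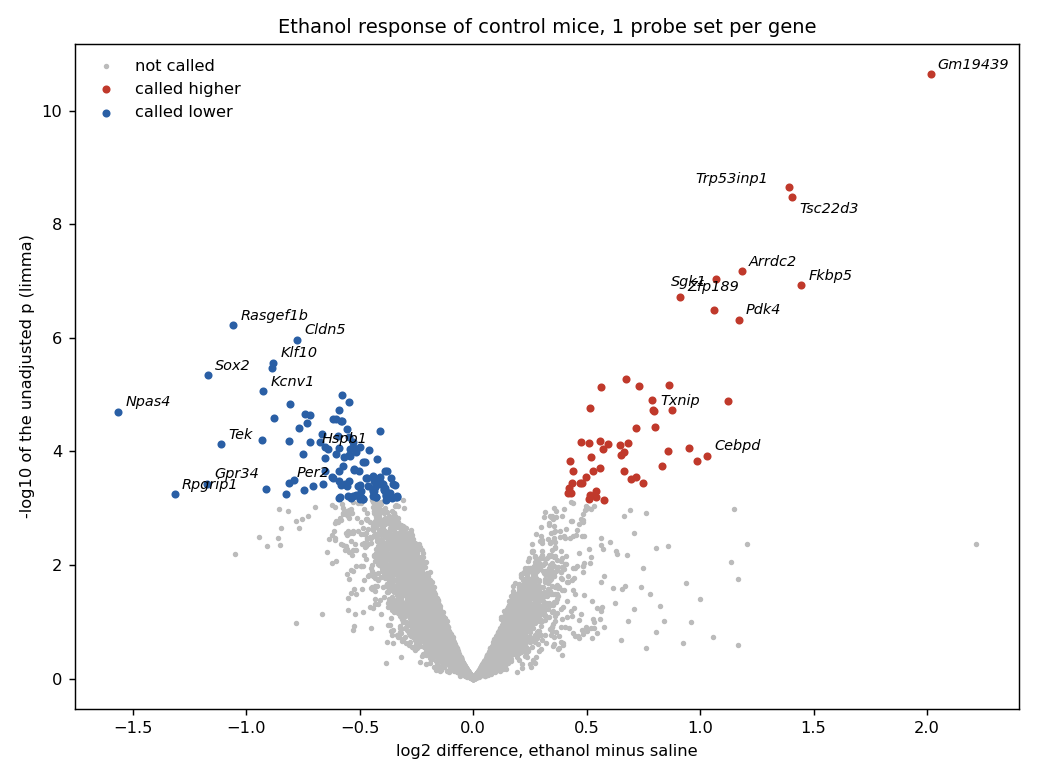
Log2 difference between ethanol and saline pools of control mice (horizontal) against the -log10 of the unadjusted limma p (vertical), 1 point per gene (12323 genes, n = 3 pools per group). The 56 called higher genes (red) reach farther up than the 123 called lower genes (blue), and Gm19439 at 2.02 is the highest point. The point farthest right, A330076H08Rik at 2.22, was not called.

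Glucocorticoid-induced genes were the group with the most rises. Of 37 measured, 16 were called higher (43.2%, where 0.454% of all genes were) and 0 lower, and 34 of 37 lay above 0. In 27 the ethanol pools lay wholly above the saline pools, as they did in 5.36% of all genes. The list's median was 0.49, against -0.060 for all genes. With the 3' to 5' difference of the control probe sets as a covariate the median was 0.58 and 6 of 37 were called. With the 6 control arrays alone 5 were called, and with a block for the replicate number 7 were. The members called were Tsc22d3, Fkbp5, Arrdc2, Pdk4, Sgk1, Cebpd, Rasd1, Angptl4, Sult1a1, Arrdc3, Nfkbia, Slc2a1, Rhob, Klf15, Pnpla2 and Klf9.

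Fkbp5 encodes a co-chaperone that lowers the affinity of the glucocorticoid receptor for its hormone. Its log2 signal was 8.93, 9.06 and 9.21 in control ethanol replicates 1, 2 and 4 and 7.60, 7.36 and 7.91 in control saline replicates 1, 2 and 3. Every ethanol pool lay at least one log2 unit above every saline pool, and the difference was 1.45 (2.72-fold, standard error 0.13, adjusted p = 0.000422, limma). A second probe set of Fkbp5 was called too, at 1.30.

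Tsc22d3 encodes GILZ, a leucine zipper protein through which glucocorticoids act against inflammation. Its pools were at 9.77, 9.77 and 9.94 after ethanol and at 8.41, 8.44 and 8.43 after saline. The saline pools were nearly identical and far below the ethanol pools, with a difference of 1.40 (2.65-fold, standard error 0.094, adjusted p = 2.77e-05, limma).

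Sgk1 encodes a kinase that is induced by glucocorticoids and mineralocorticoids and acts on ion channels and transporters. Values were 9.24, 9.01 and 9.21 after ethanol and 8.03, 7.98 and 8.23 after saline. No pools overlapped and the difference was 1.07 (2.10-fold, standard error 0.096, adjusted p = 0.000383, limma). Of 9945 measured genes with a promoter in the RefSeq table (GRCm38.p6, 250 bases before to 50 after each start), Sgk1 was the 1 gene (0.0101%) whose window held the full glucocorticoid response element, here AGAACA and TGTTCT set 3 bases apart. The match began at -189 from the start, and an E-box (CACGTG) at -246. The window is shown because it holds this single match, with both motifs in capitals, at chr10:21993640-21993939 on the + strand.
Sgk1: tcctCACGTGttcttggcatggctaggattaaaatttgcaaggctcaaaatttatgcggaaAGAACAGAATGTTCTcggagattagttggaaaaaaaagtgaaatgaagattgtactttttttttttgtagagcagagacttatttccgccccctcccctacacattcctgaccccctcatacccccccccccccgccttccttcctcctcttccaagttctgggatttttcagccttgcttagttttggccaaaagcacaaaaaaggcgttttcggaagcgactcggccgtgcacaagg

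The motifs were looked for on both strands, letter for letter, which is narrower than what the receptor binds, and TGTTCT alone is also contained in the full element. Its half-site TGTTCT stood in 7 of 30 glucocorticoid-induced genes with a promoter (23.3%), in 7 of 44 called higher genes (15.9%), in 17 of 96 called lower genes (17.7%) and in 14.8% of all. A match is a description of letters, and a window without one says nothing of the receptor.

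Pdk4, Angptl4 and Pnpla2 serve the use of fat as fuel. Pdk4, a kinase that shuts off pyruvate dehydrogenase, was at 7.32, 7.20 and 7.02 after ethanol and at 6.17, 5.79 and 6.06 after saline. The groups were far apart (1.17, 2.25-fold, standard error 0.12, adjusted p = 0.00107, limma). Angptl4, a secreted inhibitor of lipoprotein lipase, rose by 0.80 (adjusted p = 0.0113, limma), and Pnpla2, a triglyceride lipase, by 0.43 (adjusted p = 0.0446, limma). Of 23 fuel-switch and fatty acid oxidation genes, only Pdk4 and Angptl4 were called (8.70%, where 1.45% of all genes were), and the list's median was -0.016. Hadha and Acadvl, enzymes of fatty acid oxidation, were at -0.28 and -0.29 and were not called.

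Alpha-arrestins are adaptors that lead membrane proteins to ubiquitin ligases, and Txnip among them binds thioredoxin and lowers glucose uptake. Of 5 measured, 3 were called higher (60%, where 0.454% of all genes were) and the median was 0.72. With the 3' to 5' covariate 1 of 5, Arrdc2, was called. Arrdc2 was at 6.25, 6.26 and 6.24 after ethanol and at 4.99, 5.01 and 5.19 after saline, with the ethanol pools almost on one value (1.18, 2.27-fold, adjusted p = 0.000335, limma). Txnip was at 8.13, 7.74 and 7.86 against 7.03, 7.11 and 7.20 (0.79, 1.73-fold, adjusted p = 0.0113, limma). Arrdc3 rose by 0.72 (adjusted p = 0.0346, limma), while Arrdc1 was at 0.16 and Arrdc4 at -0.057 with neither called. Slc2a1, the glucose transporter of the blood-brain barrier and of astrocytes, was at 9.64, 9.70 and 9.50 after ethanol and at 9.02, 8.79 and 9.09 after saline. It was called higher by all 3 of its probe sets (0.65 by the one of highest mean, 1.56-fold, adjusted p = 0.0197, limma).

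Transcription factors stood on both sides. Cebpd, a factor of acute stress responses, was at 5.95, 5.63 and 5.75 after ethanol and at 4.61, 4.47 and 5.17 after saline (1.03, 2.04-fold, adjusted p = 0.0227, limma). Of 13 Kruppel-like factors, Klf15 and Klf9 were called higher and Klf10 lower (23.1%, where 1.45% of all genes were called). The list's median was -0.065, and with the 3' to 5' covariate 0 of 13 were called. Klf15, a regulator of amino acid and glucose use, rose by 0.56 (adjusted p = 0.0188, limma). Klf9, which has high levels in neurons and takes part in their maturation, rose by 0.43 by its main probe set, and 3 of its 6 probe sets were called higher. The main probe set of Klf9 kept its call in 1 of the 6 fits that left out 1 control array. Klf10, a factor induced by TGF-beta, was at 6.97, 6.95 and 6.97 after ethanol and at 7.85, 7.81 and 7.88 after saline. Both groups of Klf10 were tight and the difference was -0.88 (1.84-fold lower, standard error 0.11, adjusted p = 0.00426, limma).

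The window of Klf15 is shown because it held 3 E-boxes, beginning at -228, -172 and -3 from the start and set in capitals, at chr6:90462326-90462625 on the + strand of GRCm38.p6. An E-box of these letters stood in 8 of 44 called higher genes with a promoter (18.2%), in 7 of 96 called lower genes (7.29%) and in 11.8% of all.
Klf15: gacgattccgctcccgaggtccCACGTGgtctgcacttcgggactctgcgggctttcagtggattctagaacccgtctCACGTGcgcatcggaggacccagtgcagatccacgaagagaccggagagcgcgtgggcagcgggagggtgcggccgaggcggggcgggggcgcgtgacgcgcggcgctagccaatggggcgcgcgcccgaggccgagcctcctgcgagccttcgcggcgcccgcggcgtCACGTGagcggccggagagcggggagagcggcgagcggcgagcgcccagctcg

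Nfkbia, the inhibitor that holds NF-kB in the cytoplasm, is induced both by glucocorticoids and by NF-kB. It was at 10.37, 10.10 and 10.13 after ethanol and at 9.47, 9.66 and 9.47 after saline (0.67, 1.59-fold, adjusted p = 0.0069, limma). It was the 1 called gene of 11 measured NF-kB targets and cytokine genes (9.09%, where 1.45% of all genes were called), whose median was 0.086. Mt2 and Mt1, metallothioneins that bind zinc, were at 0.49 (adjusted p = 0.0586, limma) and 0.34 and were not called, and 0 of 21 oxidative stress and metallothionein genes were. Not every glucocorticoid-induced gene was higher. Per1 was at -0.12, Dusp1 at -0.077 and Fam107a at -0.032, and Ddit4, an inhibitor of mTOR signaling, was at 1.15 but not called (adjusted p = 0.0586, limma), since its ethanol pools spread over 9.01, 8.79 and 8.16.

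Genes of the hormone axis itself did not pass. The glucocorticoid receptor Nr3c1 was at 8.58, 8.82 and 8.96 after ethanol and at 9.24, 9.22 and 9.19 after saline, without overlap but with an adjusted p of 0.0736 (-0.43, limma), and 1 of its 4 probe sets was above 0. Crh, corticotropin-releasing hormone, was at -0.52 (adjusted p = 0.0995, limma) and Fkbp4, a co-chaperone of the receptor, at -0.26, with 2 of its 3 probe sets above 0. Of 8 glucocorticoid receptors, chaperones and hormone genes 0 were called, where 1.45% of all genes were, and their median was -0.18.

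**Figure D2:**
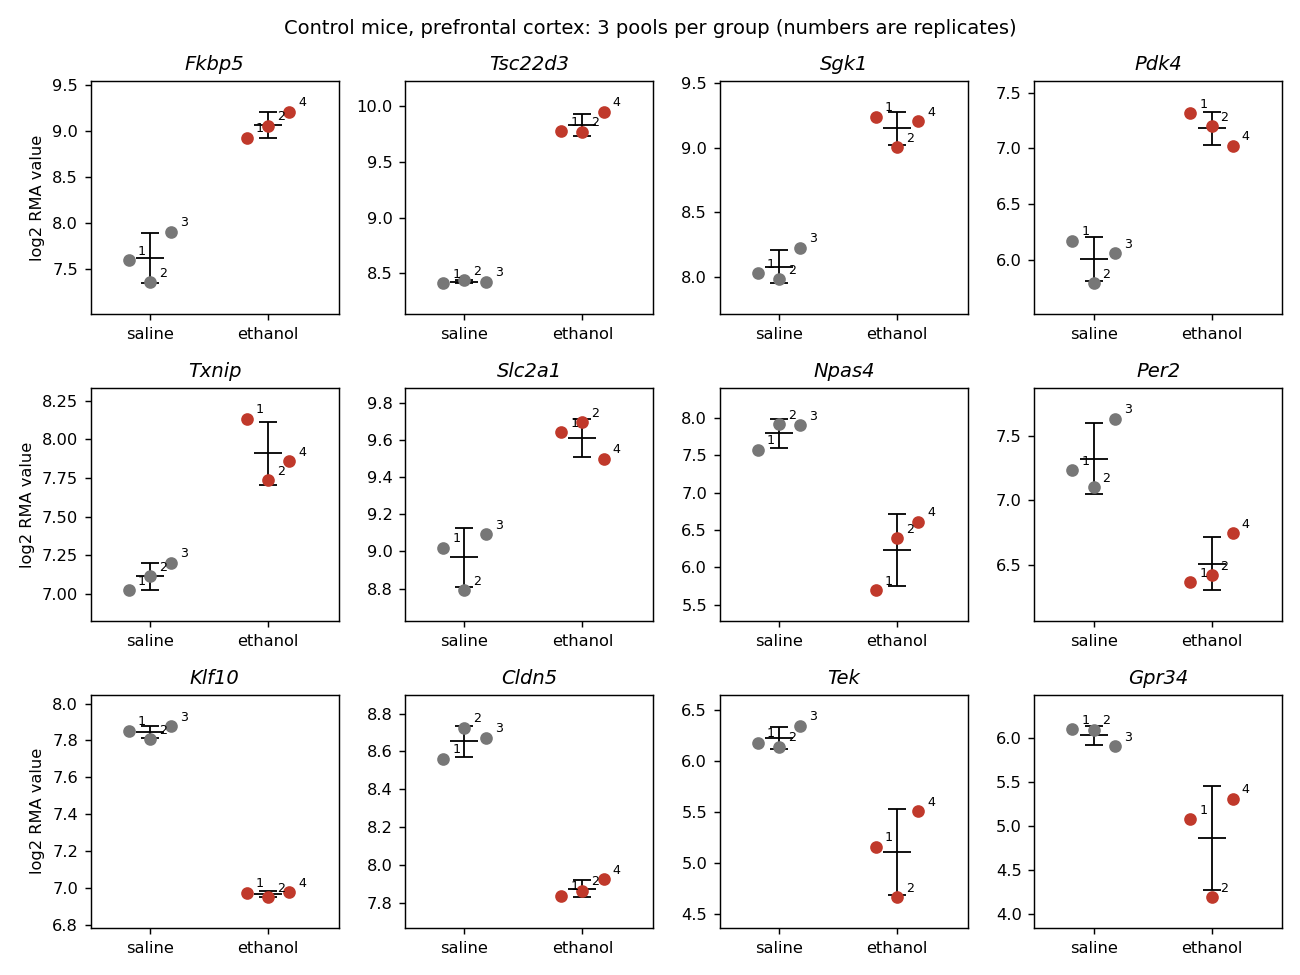
Log2 RMA values of 12 genes in the 3 saline (grey) and 3 ethanol (red) pools of control mice, numbered by replicate, with bars at mean ± SD (n = 3). In all 12 panels the groups do not overlap. The vertical axes differ and start above 0.

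The largest rise among called genes belonged to a noncoding gene. Gm19439, a long noncoding RNA gene at chr3:88030858-88033152 in RefSeq (GRCm38.p6), next to Hapln2 and Gpatch4, was at 7.36, 7.40 and 7.24 after ethanol and at 5.19, 5.30 and 5.45 after saline. The difference was 2.02 (4.04-fold, standard error 0.089, adjusted p = 5.66e-07, limma), and only 1 probe set measures it. Trp53inp1, a p53 target that promotes cell cycle arrest and autophagy, was at 8.81, 8.79 and 8.71 against 7.35, 7.33 and 7.46 (1.39, 2.63-fold, adjusted p = 2.74e-05, limma). Of 22 p53 targets and growth arrest genes, only Trp53inp1 and Tob2 were called higher (9.09%, where 0.454% of all genes were). The list's median was 0.12. Sesn3 was at 0.53, Sesn1 at 0.48 and Cdkn1a at 0.45, and none of these passed.

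Further rises came from genes of mixed function. Zfp189, a zinc finger factor, rose by 0.91 (adjusted p = 0.000583, limma) and Smim3, a small membrane protein, by 1.06 (adjusted p = 0.000819, limma). Pkp2, a plakophilin of cell junctions, rose by 1.12 and Hmgb2, a chromatin protein, by 0.95. Fzd2, a Wnt receptor, rose by 0.86. The transcribed pseudogene 6820431F20Rik rose by 0.99, a signal that may be shared with a related gene. Mctp1, a calcium-binding membrane protein, was at 6.90, 7.54 and 7.21 after ethanol and at 6.35, 6.36 and 6.32 after saline, with ethanol replicate 1 much closer to the saline pools than the other two (0.87, adjusted p = 0.0113, limma).

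Genes switched on by neuronal activity lay mostly below 0. Of 25 measured, 21 were below 0 and 13 had ethanol pools wholly below the saline pools (19.3% of all genes did), with a median of -0.23. Only Npas4 and Per2 were called (8%, where 1.45% of all genes were). With the 3' to 5' covariate the median was -0.10 and 0 were called. Npas4, a factor that promotes inhibitory synapses in response to activity, had the largest fall of all genes. It was at 5.69, 6.39 and 6.61 after ethanol and at 7.57, 7.91 and 7.90 after saline, with no overlap (-1.57, 2.96-fold lower, standard error 0.23, adjusted p = 0.0113, limma).

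Other activity-regulated genes had large values that did not pass. Egr2 was at -1.05 (adjusted p = 0.119, limma), Egr1 at -0.57 (adjusted p = 0.0586, limma) and Arc, a protein of synaptic scaling, at -0.53. Fos, of the AP-1 factors, was at -0.62 (adjusted p = 0.134, limma). Jun, its partner, went the other way. It was at 8.93, 8.58 and 8.78 after ethanol and at 7.99, 8.13 and 8.17 after saline (0.67, 1.59-fold, adjusted p = 0.0299, limma), and its other probe set was called at 0.86. Of 8 Fos and Jun genes, Jun was the only one called (12.5%, where 1.45% of all genes were). Jun kept its call in 1 of the 6 fits that left out 1 control array, and with the 3' to 5' covariate 0 of 8 were called. The list's median was -0.086, which turned above 0 with the 60% filter and with the 3' to 5' covariate.

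Feedback inhibitors of MAP kinase signaling gave 1 call among 17 (5.88%, where 1.45% of all genes were called). Dusp6, a phosphatase of ERK that follows ERK activity, was at 8.08, 8.41 and 8.57 after ethanol and at 9.18, 9.10 and 9.01 after saline (-0.75, 1.68-fold lower, adjusted p = 0.0427, limma). The list's median was -0.077. Rasgef1b, an exchange factor for Ras-like proteins, was at 7.49, 7.39 and 7.19 against 8.37, 8.43 and 8.45. Its difference of -1.06 (2.08-fold lower, adjusted p = 0.00125, limma) had the smallest p of any gene that fell.

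Clock genes run on a feedback loop in which Clock and Arntl drive the Per and Cry genes. Of 20 measured, Per2 and Arntl were called lower (10%, where 0.998% of all genes were) and 0 higher. The list's median was -0.021, whose sign changed in 5 of 17 settings. Per2 was at 6.37, 6.42 and 6.75 after ethanol and at 7.24, 7.10 and 7.63 after saline (-0.81, 1.75-fold lower, adjusted p = 0.0374, limma). Arntl was at -0.51 by its main probe set (adjusted p = 0.0389, limma), but its second, dimmer probe set was at 0.40 and not called. Cry1 was at -0.49 and Dbp, an output gene, at 0.36, and neither passed. All tissue was taken 4 hours after injection.

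Heat shock proteins and other chaperones fold proteins and are induced by heat. Of 28 measured, 23 were below 0 and Hspb1, Chordc1 and Hspa4 were called lower (10.7%, where 0.998% of all genes were), with a median of -0.20. With the 3' to 5' covariate the median was -0.094 and 0 of 28 were called, and single arrays left out gave 0 to 2 calls. Hspb1, a small heat shock protein, was at 7.83, 7.73 and 7.72 after ethanol and at 8.68, 8.29 and 8.27 after saline (-0.65, 1.57-fold lower, adjusted p = 0.0234, limma). Chordc1, a partner of Hsp90, was at 8.56, 8.48 and 8.64 against 9.32, 8.97 and 9.16 (-0.59, 1.51-fold lower, adjusted p = 0.0299, limma). Hspa4 was at -0.34 (adjusted p = 0.0476, limma) by its main probe set, while its other 3 were above 0 and not called. The inducible Hspa1a and Hspa1b were at -0.022 and -0.29 and were not called.

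Heat shock elements, searched as GAA, TTC and GAA with 2 bases between neighbours, stood in 5 of 24 chaperone genes with a promoter (20.8%), in 1 of 96 called lower genes, in 0 of 44 called higher genes and in 0.583% of all. The window of Chordc1, the called gene among these, is shown with its 3 overlapping matches in capitals. The first begins at -4 from the start, and the window lies at chr9:18292017-18292316 on the + strand of GRCm38.p6.
Chordc1: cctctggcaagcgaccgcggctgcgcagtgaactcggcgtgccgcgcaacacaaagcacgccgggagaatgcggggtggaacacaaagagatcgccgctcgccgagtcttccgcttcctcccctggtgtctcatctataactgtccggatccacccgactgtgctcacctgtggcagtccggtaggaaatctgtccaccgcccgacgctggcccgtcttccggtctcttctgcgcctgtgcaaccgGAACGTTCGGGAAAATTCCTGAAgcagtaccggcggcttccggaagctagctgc

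Genes of the unfolded protein response, which relieves the endoplasmic reticulum, had a median of -0.19 over 24 with 20 below 0, and one of -0.11 with 0 called with the 3' to 5' covariate. Creld2, a secreted chaperone of that response, was the 1 called (4.17%, where 1.45% of all genes were). It was at 6.60, 6.78 and 6.71 after ethanol and at 7.31, 7.13 and 7.44 after saline (-0.59, adjusted p = 0.0368, limma). Manf was at -0.41 and Hspa5, the main chaperone of the endoplasmic reticulum, at -0.22, and neither passed. Genes of RNA-binding and splicing factors that follow temperature had a median of -0.21 over 11 with 0 called (-0.13 with the covariate). Cirbp, the cold-inducible RNA-binding protein, was at 0.36 and Tra2a, a splicing factor, at -0.53 (adjusted p = 0.119, limma).

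**Figure D3:**
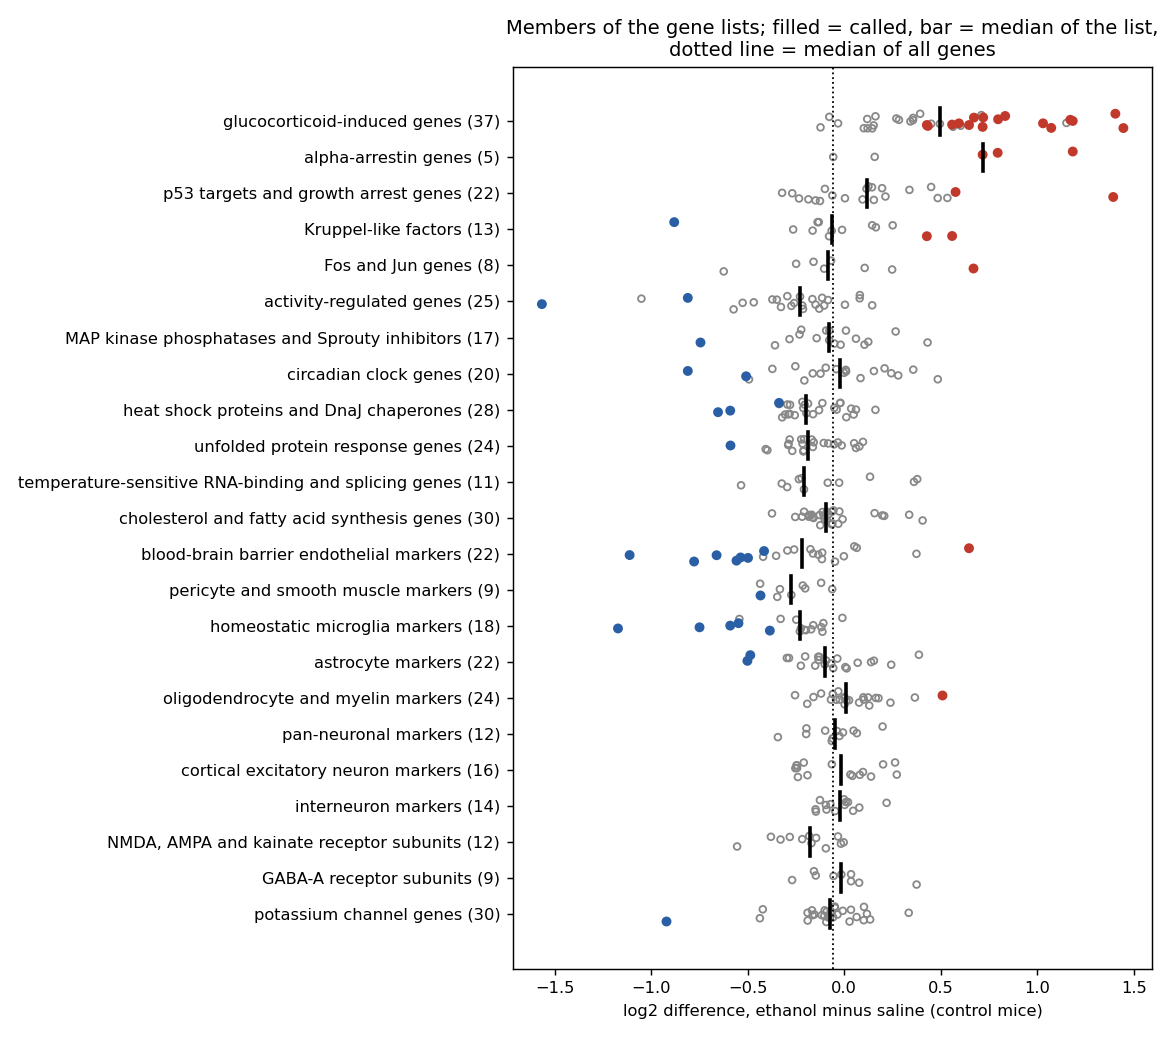
Log2 difference between ethanol and saline pools of control mice (horizontal) for the members of 23 gene lists (number measured in brackets), 1 point per gene. Filled points are called genes, bars are list medians and the dotted line is the median of all genes at -0.060. Glucocorticoid-induced genes lie to the right, with 16 of 37 called higher.

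Markers of the brain's vessels made up the largest group of falls. In bulk tissue fewer cells of a type and less RNA per cell cannot be told apart. Of 22 blood-brain barrier endothelial markers, 8 were called (36.4%, where 1.45% of all genes were), 7 of them lower and 1 higher, and the median was -0.22. Cldn5, which seals the tight junctions of the barrier, was at 7.84, 7.87 and 7.93 after ethanol and at 8.56, 8.73 and 8.67 after saline. The pools of Cldn5 were tight and far apart (-0.78, 1.71-fold lower, standard error 0.087, adjusted p = 0.00191, limma). Tek, the receptor of angiopoietins, was at 5.16, 4.67 and 5.51 against 6.18, 6.14 and 6.35 (-1.11, 2.16-fold lower, adjusted p = 0.0191, limma).

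The transporters and growth factor receptors of endothelium went the same way. Slco1a4, an organic anion transporter, was at -0.56 (adjusted p = 0.0147, limma) and Abcb1a, which encodes the drug pump P-glycoprotein, at -0.50 (adjusted p = 0.0203, limma). The VEGF receptors Flt1 and Kdr were at -0.42 and -0.54, and Vwf, von Willebrand factor, at -0.66. Slc2a1 is the marker that rose, as given above. Of the markers that were not called, Pecam1 was at -0.13, Esam at 0.065, Eng at -0.0020 and Ramp2 at 0.052, whereas Cdh5 was at -0.42 (adjusted p = 0.122, limma). In 12 of 22 the ethanol pools lay wholly below the saline pools, as in 19.3% of all genes.

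Summed over the 22 markers, the endothelial level was 3594 to 3660 in ethanol pools and 3851 to 4117 in saline pools (linear scale, no overlap, exact permutation p = 0.1). Pericyte and smooth muscle markers summed to 1578 to 1684 against 2043 to 2107 over 9 genes, again without overlap. All 9 were below 0, with a median of -0.27. Rgs5, a marker of pericytes, was called at -0.44 (adjusted p = 0.0434, limma), but of its 4 probe sets 2 were above 0, up to 0.56. With the 3' to 5' difference as a covariate the medians were -0.19 for endothelial and -0.28 for pericyte markers and no endothelial or pericyte gene was called.

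Microglia, the macrophages of brain, gave 5 calls of 18 homeostatic markers (27.8%), all of them lower, where 0.998% of all genes were called lower. All 18 lay below 0 and the median was -0.23. Gpr34, a lysophospholipid receptor, was at 5.07, 4.19 and 5.30 after ethanol and at 6.09, 6.09 and 5.90 after saline (-1.17, 2.25-fold lower, standard error 0.24, adjusted p = 0.0374, limma). Sall1, a factor that holds microglial identity, was at 5.11, 5.19 and 5.22 against 5.99, 5.68 and 6.10 (-0.75, adjusted p = 0.0219, limma). Olfml3 was at -0.59, Aif1, which encodes Iba1, at -0.55, and Tyrobp, the adaptor of Trem2, at -0.39. Other well-known markers lay closer to 0, as P2ry12 was at -0.33, Cx3cr1 at -0.25, Csf1r at -0.16 and Tmem119 at -0.0097 with none called. The summed level was 3681 to 4268 after ethanol and 4440 to 4734 after saline, without overlap. With the 3' to 5' covariate the median was -0.28 and 0 of 18 were called.

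Astrocyte markers gave 2 calls of 22 (9.09%, where 1.45% of all genes were called), both of transcriptional regulators. Id3 was at -0.49 (adjusted p = 0.026, limma) and Sox9 at -0.50 (adjusted p = 0.0473, limma), while the structural and metabolic markers Gfap (0.0054), Glul (0.012) and Aldoc (-0.057) lay near 0. The summed levels of astrocyte markers overlapped, at 28187 to 30024 after ethanol and 28525 to 30766 after saline. Sox2, a factor of glia and neural stem cells that was on no list, was at 7.17, 7.14 and 7.23 after ethanol and at 8.36, 8.20 and 8.49 after saline. It was among the largest falls (-1.17, 2.25-fold lower, adjusted p = 0.0063, limma). Ets1, a factor of vessels and lymphocytes, fell by 0.93, though 1 of its 3 probe sets was above 0.

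Of 24 oligodendrocyte and myelin markers 1 was called (4.17%, where 1.45% of all genes were). Mal, a proteolipid of compact myelin, was at 8.64, 8.75 and 8.57 after ethanol and at 8.21, 8.04 and 8.18 after saline, and both of its probe sets were called higher (0.51 by the brighter, adjusted p = 0.019, limma). Mbp was at 0.24, Mobp at 0.18 and Mog at -0.069, and none of these passed. The summed level of the list was 12531 to 13859 after ethanol and 12202 to 12410 after saline, without overlap, and its median was 0.0070, whose sign changed in 3 of 17 settings. Oligodendrocyte precursor markers summed to 1814 to 1908 over 8 genes after ethanol and to 1944 to 2083 after saline, with 0 called.

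Neuronal markers gave no call. Of 12 pan-neuronal, 16 excitatory, 9 striatal and 14 interneuron markers 0 were called, with medians of -0.049, -0.016, -0.023 and -0.024. Lists of this size would mostly hold no call at the share of all genes (1.45%). The summed levels of pan-neuronal and excitatory markers overlapped between the groups, whereas interneuron markers summed to 10986 to 11147 after ethanol and 11376 to 11701 after saline.

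Targets of ethanol at the synapse were not called either, where 1.45% of all genes were. Lists this short would mostly hold no call at that share. GABA-A receptor subunits (9 measured) had a median of -0.015. All 12 measured NMDA, AMPA and kainate receptor subunits lay below 0 with a median of -0.18, which became 0.012 with the 3' to 5' difference as a covariate. Grin2b, the NR2B subunit of the NMDA receptor, was at -0.55 by its brightest probe set (adjusted p = 0.106, limma) and its other 3 were above 0. The groups of 17 calcium-calmodulin kinases, 22 sodium and calcium channels, 11 postsynaptic scaffolds and 13 monoamine and opioid receptors had 0 called, though 1 of 3 probe sets of Oprl1, the nociceptin receptor, was called higher.

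Kcnv1 was the 1 called of 30 potassium channel genes (3.33%, where 1.45% of all genes were called). It encodes a silent subunit that alters the gating of other voltage-gated channels. Values were 7.45, 7.75 and 7.94 after ethanol and 8.81, 8.54 and 8.56 after saline (-0.93, 1.90-fold lower, adjusted p = 0.00771, limma), and 2 of its 3 probe sets were called. The median of the list was -0.072.

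Other falls of size belonged to single genes. Nwd2 fell by 0.89 and Rbm12b1, an RNA-binding protein, by 0.81. Slc39a2, a zinc transporter, fell by 0.83. P4ha1, a collagen hydroxylase induced by hypoxia, was at 6.72, 6.76 and 6.74 after ethanol and at 7.41, 7.20 and 7.57 after saline (-0.65, adjusted p = 0.0203, limma). Its list had 1 called lower and 1 called higher (Slc2a1) of 16 (12.5%, where 1.45% of all genes were called). Rpgrip1, a protein of cilia, had the second largest fall, but its saline pools spread over 8.08, 9.37 and 8.78 and its ethanol pools over 6.96, 7.93 and 7.37 (-1.32, standard error 0.29, adjusted p = 0.0463, limma). The 9.37 was that of control saline replicate 2, the pool in doubt, and the Fyn-null pools lay at 8.90 to 9.50. Without that pool Rpgrip1 was not called. Pyroxd2 was at -0.88 by one probe set and at 0.066 by the other.

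Genes of alcohol and acetaldehyde metabolism gave 0 calls of 13 measured, where 1.45% of all genes were called. Aldh1a1 at -0.38 and Aldh2 at -0.19 had the smallest p-values of that list. Cholesterol and fatty acid synthesis genes (30) had a median of -0.096 with 0 called, and interferon-stimulated genes (15) one of -0.038 with 0 called. Genes that the study named for the PFC of Fyn-null mice, and not of control mice, were here in control mice at -0.13 (Bdnf), 0.10 (Kcnma1), -0.065 (Syp) and 0.067 (Camkk2), with 0 called. The study chose these on the same samples and from another score. Arl6ip5, which the study named beside them, was not among the measured genes. The values are those of each gene's brightest probe set. Over all probe sets they ran from -0.39 to 0.42 for Kcnma1 (5), -0.12 to 0.59 for Camkk2 (4), -0.065 to 0.16 for Syp (2) and -0.34 to -0.13 for Bdnf (2), with 0 called. Bdnf, a neurotrophin that follows neuronal activity, was at -0.60 in Fyn-null mice and called there (adjusted p = 0.0495, limma), and the difference between genotypes did not pass (adjusted p = 0.992, limma). Fyn itself was at 0.26 and 0.20 by its 2 probe sets and was not called.

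Fyn-null mice received the same treatment. Their arrays entered the comparison through the shared estimate of spread, the filter on mean signal and the choice of each gene's probe set. Of the 179 genes called in control mice, 174 had the same sign in Fyn-null mice (97.2%, where 66.3% of all genes did). In 142 (79.3%) the Fyn-null groups did not overlap in that direction. Over all genes they did not overlap, in either direction, in 18.5%. Of the 179, 45 (25.1%) were called there too, where 63 of all genes (0.511%) were. Both tests of a gene used the same standard error, so a small one favours a call in both genotypes. The calls in Fyn-null mice are thus no independent repeat, and the share over all genes is an uneven measure for them. Fyn-null values were 1.74 for Gm19439, 1.32 for Tsc22d3, 1.28 for Fkbp5, 1.00 for Sgk1 and -1.52 for Npas4, and all of these were called. The 37 glucocorticoid-induced genes had a median of 0.53 in Fyn-null mice with 16 called higher. RNA quality moved with the treatment here as well. Ethanol pools had 3' to 5' differences of 0.63, 0.39 and 0.43 (log2), against 0.76, 0.85 and 0.83 after saline, without overlap. What part this had in the shared signs was not tested. The pool labelled Fyn-null saline replicate 4 was kept, though its Fyn signal of 9.45 puts its genotype in doubt.

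Vascular and microglial genes had mixed values in Fyn-null mice. Slco1a4 was at -0.59 and called and Flt1 at -0.40 without a call, both close to their control values, and Slc2a1 was at 0.77 and called. Cldn5 was at -0.50 and called, Tek at -0.72 and Gpr34 at -0.65 without a call, and Olfml3 at -0.088 and Tyrobp at -0.029. List medians there were -0.13 for endothelial, -0.056 for pericyte and -0.028 for microglia markers. The test of the difference between genotypes called 0 of 24770 probe sets (0.0%) in limma, with 1023 (4.13%) at an unadjusted p under 0.05, so that no gene was shown to respond differently. Mctp1 was at 0.048, Rpgrip1 at 0.26, Pyroxd2 at 0.27 and Shisa4 at 0.12 in Fyn-null mice, against 0.87, -1.32, -0.88 and -0.91 in control mice, and none of these differences passed (adjusted p = 0.992 for each, limma).

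**Figure D4:**
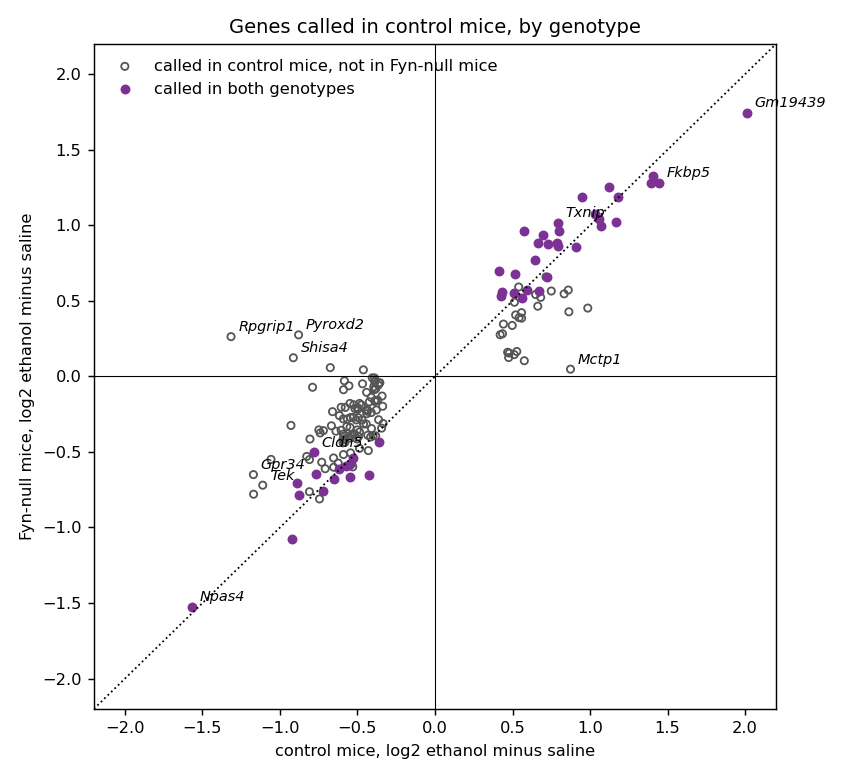
Log2 difference between ethanol and saline pools in Fyn-null mice (vertical) against control mice (horizontal) for the 179 genes called in control mice, with the line of equal response dotted. Purple points (45) are called with the same sign in both genotypes, and 174 of 179 points share their sign.

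Leaving out the pool in doubt or taking the RNA quality sign into account ended many calls, but so did leaving out other pools. Without control saline replicate 3, whose genotype is not in doubt, 45 of the 179 genes were still called (25.1%). Without control saline replicate 2, 63 of the 179 genes were still called (35.2%), among them 9 of the 16 glucocorticoid-induced genes, Cldn5 as the 1 endothelial marker and Sall1 as the 1 microglia marker. With the 3' to 5' difference as a covariate 11 were (6.15%), of which 10 had risen and 1, Rasgef1b, had fallen. Those that rose and kept their call include Gm19439, Trp53inp1, Tsc22d3, Arrdc2, Sgk1, Fkbp5, Zfp189, Smim3 and Pdk4. All 179 kept their sign with the covariate. Without the pool in doubt no sign could change, since the groups of every called gene did not overlap. The covariate moves with the treatment, so the 2 cannot be told apart, and its part in the falls of vascular, microglial and chaperone genes was not tested beyond this fit.

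Single pools changed the count of calls. Genes of smallest p kept theirs, which their rank makes likely, since these fits share most arrays. Over the 6 fits that each left out 1 control array, 32 of the 179 genes were called in all, 19 of the 56 that rose and 13 of the 123 that fell. Among them were Npas4, Klf10, Kcnv1, Cldn5, Sox2, Nfkbia and Txnip, beside Gm19439, Trp53inp1, Tsc22d3, Arrdc2, Sgk1, Fkbp5, Zfp189, Smim3, Pdk4 and Rasgef1b. Glucocorticoid-induced genes kept 8, 9 and 16 calls without control ethanol replicates 1, 2 and 4, and 10, 9 and 12 without control saline replicates 1, 2 and 3. Endothelial markers called lower were 2, 1 and 5 and then 7, 1 and 1 in the same order, and microglia markers 1, 0 and 4 and then 1, 1 and 1. Per2 kept its call in 1 of these 6 fits and Arntl, Creld2, Hspa4 and Rgs5 in 0, with adjusted p-values of 0.0324 to 0.132 (limma).

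**Figure D5:**
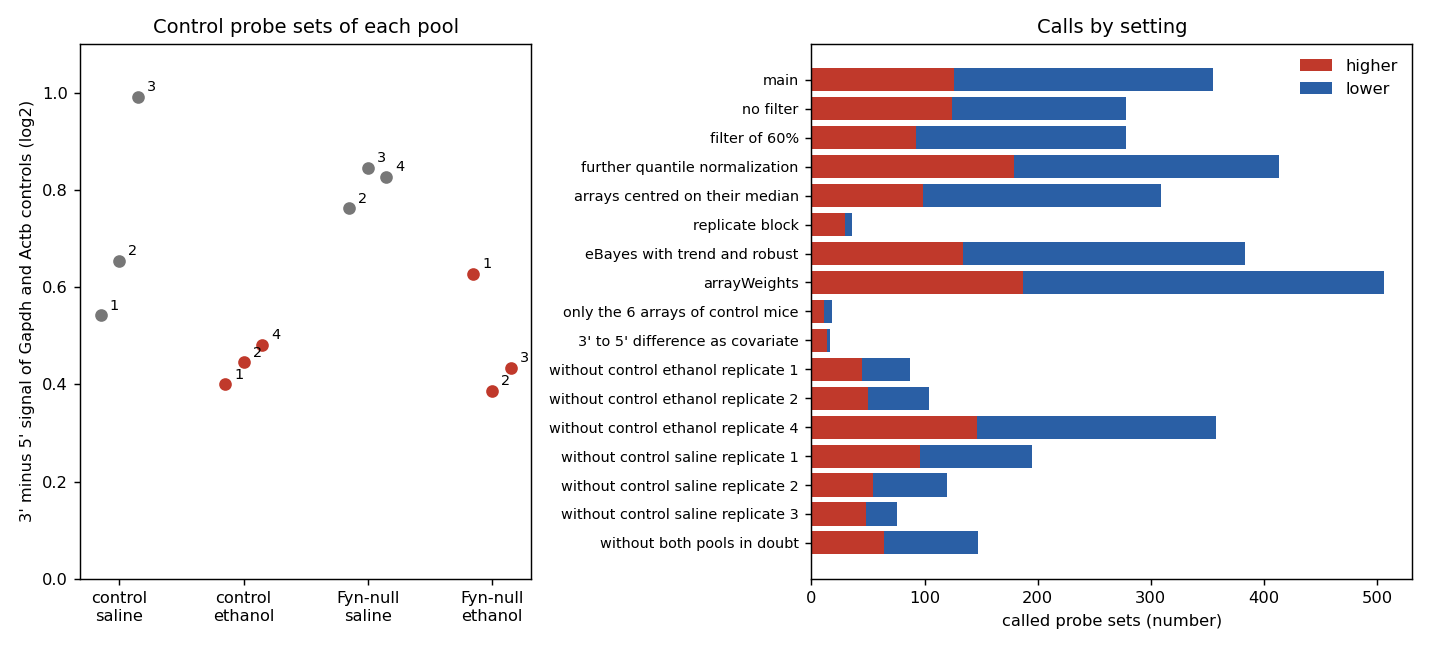
Left, difference between 3' and 5' control probe sets (log2, mean of Gapdh and Actb) in each pool by group, numbered by replicate, with control saline replicate 3 highest at 0.99. Right, number of called probe sets (red higher, blue lower) under each setting, from 16 with this difference as a covariate to 506 with array weights.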

How the data were processed

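RNA was measured on Affymetrix whole-genome mouse arrays. The deposited values are log2 signals per probe set, which the authors made by RMA (affy package) according to the submitters' notes, and no software version is given in the sources used here, nor whether the published batch correction had been run on them. RMA gives all arrays one distribution, so a shift shared by all genes would not be seen. The S-scores of the study were not computed, as they start from single probes. After 64 control probe sets, the 45% of the other 45037 with the lowest mean were dropped, and 24770 were tested. Of the 45037, 34945 have 1 gene symbol, 932 several and 9160 none, and 34741 matched a RefSeq gene by ID. The probe set of highest mean stood for its gene (12323 genes).

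limma 3.58.1 in R 4.3.3 (lmFit, eBayes) was fitted to the 4 group means over all 12 arrays, with Benjamini-Hochberg adjustment over all probe sets and a threshold of 0.05. In the simulated data, with independent noise, it made 4 false calls. The 46 gene lists (659 measured genes) were counted and not tested. The members and lists were chosen with earlier results of these data known. Named genes were the 15 largest rises and 15 largest falls among called genes, up to 6 called members of each list or the 2 of smallest p in a list without a call, genes the study names for this region, and Fyn. Other genes, such as Kdr, Vwf and further list members, were named after their values were seen. The array number limits precision. Nothing says that pools came from separate cohorts or days, so p-values measure the spread between these pools. Alternatives were no filter or one of 60%, quantile normalization, centring, a block for the replicate number, trended and robust eBayes, array weights, averaging the probe sets of each gene, the 6 control arrays alone, a 3' to 5' covariate, and leaving out each array or both pools in doubt.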

Additional observations from a re-analysis of the deposited data

Results flagged for a closer look

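For 1 probe set of Washc3, which encodes a subunit of the WASH complex of endosomes, the pools separated in opposite directions in the 2 genotypes. Its log2 difference was -0.48 in control mice (standard error 0.085, adjusted p = 0.0216, limma, lower in all 3 ethanol pools) and 0.091 in Fyn-null mice (adjusted p = 0.751, limma). The responses differed by -0.57 (standard error 0.12), and the test of that difference did not pass (adjusted p = 0.992, limma). Without control saline replicate 2 the control response of Washc3 was -0.45 with an adjusted p of 0.0708 (limma).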

How the results depend on the processing

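With the probe set of highest mean, none of the 58 named called genes changed its sign in the settings that tested it, and 12 of them were not tested under the 60% filter. Where arrays were only left out no sign could change, since the groups did not overlap. Averaging probe sets was run for list medians only, and for Hspa4, Arntl and Rgs5, whose probe sets differ in sign, it was not run. Against 355 called probe sets (126 higher, 229 lower), limma called 36 (30, 6) with the replicate number as a block, 18 (11, 7) with the 6 control arrays alone, 16 (14, 2) with the 3' to 5' covariate and 147 (64, 83) without both pools in doubt. Leaving out 1 array gave 76 to 358 (45 to 146 higher, 28 to 212 lower), with 76 without control saline replicate 3. Replicate numbers did not pair the pools: over 13 same-numbered pairs, residual correlations ran from -0.43 to 0.32 and exceeded 0.1 in 3, and 2 of the 12 arrays lay nearest an array of their number. Calls were 278 with no filter, 278 with the 60% filter, 413 after quantile normalization, 309 after centring, 383 with trended and robust eBayes and 506 with array weights. The share of higher calls was 35.5%, but 43.3% after quantile normalization, 44.6% with no filter, 83.3% with the block, 87.5% with the covariate, 61.1% with the 6 control arrays alone and 40.8% to 63.2% without 1 array. The difference between genotypes kept 0 called probe sets with no filter, with the block and without both pools in doubt. Of the 58 named called genes, 10 stayed called with the covariate, 14 with the 6 control arrays, 17 with the block, 31 without both pools in doubt and 46 to 57 in the other fits of all arrays. The cause of these losses was not tested, beyond the fewer arrays or degrees of freedom of some fits. Medians of glucocorticoid-induced, endothelial, pericyte, microglia, activity-regulated, chaperone and unfolded protein response genes kept their sign in 17 of 17 settings.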

Other observations

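Called genes that no list held included further genes of vessels and glia, picked after their values were seen. Cav1, the main protein of endothelial caveolae, fell by 0.58, Slco1c1, the thyroid hormone transporter of the blood-brain barrier, by 0.62 and Ptprb, a phosphatase of endothelium, by 0.52. Slc40a1, the iron exporter, fell by 0.46. Nr2e1 and Gli3, factors of neural stem cells and astrocytes, fell by 0.59 and 0.38, and Numb, an inhibitor of Notch, by 0.54. Cckbr, the cholecystokinin receptor of cortex, fell by 0.53 and Sema3a, an axon guidance cue, by 0.55. All of these had an adjusted p under 0.05 in limma and Fyn-null values of the same sign. Among the rises were Pik3ip1, an inhibitor of PI3 kinase (0.73), Cyp1b1, a cytochrome P450 (0.79), Plat, tissue plasminogen activator (0.69), and the factor Cebpa (0.56).

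Some large differences were not called, as the pools of a group differed among themselves, and these too were picked after their values were seen. A330076H08Rik had a log2 difference of 2.22 (standard error 0.63), with 8.63, 6.67 and 6.27 in control ethanol replicates 1, 2 and 4 and 5.25, 3.60 and 6.07 in control saline replicates 1, 2 and 3. Pde1a was at 1.21, Creg2 at 1.17 and Cap1 at 1.16 (standard error 0.99), and none was called. In each of these genes the lowest saline pool was control saline replicate 2, the pool in doubt as to genotype. Its 3.60 for A330076H08Rik lay beside Fyn-null pools at 3.84 to 5.12. Without that pool the differences were 1.53 for A330076H08Rik, 0.83 for Pde1a, 0.87 for Creg2 and 0.35 for Cap1. What part genotype had in them was not tested.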
